A study of Mus musculus with 3 samples.

Results

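Macrophages and inflammatory monocytes of the tumour-bearing mouse brain were compared within the same hashed cell samples, by transcripts and by antibody tags read from the same cells. The study was a CITE-seq experiment, in which antibodies that carry DNA barcodes are counted together with the cell's transcripts, and in which hashtag antibodies record the sample of origin. The cells came from female C57Bl/6 mice of 2 to 3 months with brain metastases of E0771 cells, a mouse mammary carcinoma line, delivered by carotid injection. Some mice received anti-VISTA plus anti-PD-L1 (Dual TX), given on alternate days from day 3 after injection, and the others did not. All mice compared here therefore carried metastases, and no tumour-free brain was analysed here. Suspensions were enriched for immune cells on a Percoll gradient, stained with 35 antibodies and 1 of 8 hashtags per sample, and loaded together on 1 capture. Which hashtags were treated is not given here, so treated and untreated mice were not compared. Hashtags may or may not be separate animals, so the p-values below cover the spread from hashtag to hashtag alone, and the labels of the 3 libraries differ on how many brain hemispheres made up a sample.

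Members were chosen by their own transcript counts, which therefore describe the classes and test nothing. Barcodes had at least 500 genes, at most 15% mitochondrial UMIs, 2000 to 40000 UMIs, at least 70% of their hashtag counts in 1 hashtag, and at most 1 detected gene of P2ry12, Tmem119, Fcrls, Gpr34 and Sall1, which mark microglia. Macrophages had at least 1 UMI of Ms4a7, at least 3 of Apoe, and at most 2 detected genes of Chil3, Thbs1, Hp, Slpi, Clec4e and Plac8. Monocytes had at least 3 UMIs of Lyz2, at least 4 of those 6 genes, and under 1% of UMIs from S100a8 and S100a9, which abound in neutrophils. Of 12908 deposited barcodes, 5336 lay in the quality, UMI and hashtag range, and 1325 of them entered the comparison, 324 macrophages and 1001 monocytes. The tests used the 6 hashtag samples (2, 3, 5, 6, 7 and 8) with at least 20 cells of both classes, holding 313 macrophages (29 to 96 per sample) and 969 monocytes (110 to 270 per sample). Hashtags 1 and 4 held 1 and 10 macrophages, against 9 and 23 monocytes, and were left out. Each fitted sample held 2.39 to 4.03 monocytes per macrophage.

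Median UMIs per cell were 9162 to 13056.5 in macrophages and 10377 to 11277.5 in monocytes over these samples, so the depth of the classes overlapped. Median genes per cell were 2558 to 3091 in macrophages and 2630 to 2738 in monocytes. The median mitochondrial share was lower in macrophages, 1.02% to 1.32% against 1.58% to 1.72% in monocytes, without overlap. Median antibody counts per cell were 2943 to 4055.5 in macrophages and 3103 to 3802 in monocytes.

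The genes of the gate describe the classes and were not tested. Ms4a7, a tetraspan membrane protein of macrophages, had a median of 1606 UMIs per 1000000 (CPM, scaled by the trimmed mean of M-values, TMM) in macrophages and 530 in monocytes. Apoe, the apolipoprotein of cholesterol transport, had 5985 and 2890 CPM. Chil3, a chitinase-like secreted protein, had 35.0 CPM in macrophages against 1245 in monocytes. Thbs1, the matrix glycoprotein thrombospondin, had 60.7 against 1153 CPM. Lyz2, lysozyme, had 4045 CPM in macrophages against 11815 in monocytes, although 90.7% of macrophages also met its monocyte minimum. The gates cut a range rather than 2 separated populations: 425 of 1001 monocytes (42.5%) met the macrophage minimum for Ms4a7 and Apoe. Of the macrophages, 173 of 324 had exactly 2 of the 6 genes, the upper limit. Of the monocytes, 313 had exactly 4, the lower limit. A further 189 barcodes with Ms4a7 and Apoe had 3 of the 6 genes and belonged to neither class.

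As background, circulating monocytes of the Ly6C-high kind enter inflamed and tumour-bearing tissue, where they lose Ly6C and gain complement, antigen-presentation and lysosomal genes as they become macrophages. Inflammatory monocytes are known for interleukin-1, chemokines that call in neutrophils, and enzymes that limit T cells. In the brain, such cells from the blood mix with resident microglia and with the macrophages of the borders.

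The antibody tags are a readout that the gate did not use, although they were read from the cells it chose. Each antibody was counted through its own barcode of 15 bases. The barcodes of 6 of the antibodies called different between the classes are shown here in full, all letters being barcode, so that the counted molecule behind each value is plain.
CD11c: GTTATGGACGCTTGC
CD38: CGTATCCGTCTCCTA
I-A-I-E: GGTCACCAGTATGAT
F4-80: TTAACTTCAGCCCGT
Ly6C: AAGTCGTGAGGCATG
CD49d: CGCTTGGACGCTTAA

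Of 35 antibodies, 33 had counts enough to test, and 15 (45.5%) differed between macrophages and monocytes at an adjusted p under 0.05 by edgeR's quasi-likelihood test with the hashtag sample as a block. Of the 33, 7 (21.2%) were higher and 8 (24.2%) lower in macrophages, and 1 (3.03%), CD11c, had classes that did not overlap. The tags for CXCR4 and KLRG1 had no counts in these cells. Values are counts per 10000 antibody counts of the class, TMM-scaled. Scaled to the plain total instead, the split was 11 higher and 4 lower, with the median log2 fold change of all tags at 0.19 in place of 0.02, so directions of small differences depend on the scaling.

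CD11c, the integrin alpha X chain of the myeloid complement receptor, was higher on macrophages. It had a lowest, median and highest value of 134, 196 and 350 in macrophages, against 84.9, 106 and 114 in monocytes. Every macrophage sample lay above every monocyte sample. The log2 fold change was 1.102 ± 0.14 (SE, n = 6 pairs; adjusted p = 3.8e-05), a fold of 2.15. CD38, an enzyme on the cell surface that consumes NAD, had 129, 180 and 243 in macrophages, against 68.2, 114 and 154 in monocytes. It was higher in macrophages in 6 of 6 pairs with overlapping ranges (log2 fold change 0.74 ± 0.17, adjusted p = 0.0040). The pair of hashtag 3 stood apart from the others, and without it the log2 fold change was 0.53.

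I-A-I-E, the MHC class II molecules that present antigen to CD4 T cells, had 1428, 2609 and 3987 in macrophages, against 755, 1851 and 2893 in monocytes. The classes overlapped because samples differed in level, hashtag 7 being highest and hashtag 6 lowest in both classes, yet macrophages were higher in 6 of 6 pairs (log2 fold change 0.71 ± 0.17, adjusted p = 0.0063). F4-80, the macrophage receptor encoded by Adgre1, had 37.1, 49.9 and 77.2 in macrophages, against 24.2, 35.7 and 48.7 in monocytes (log2 fold change 0.53 ± 0.13, adjusted p = 0.0077). These counts were low: the tag for CD3, a T cell antigen, had medians of 31.0 in macrophages and 36.3 in monocytes, with no call (log2 fold change -0.03). SIRPa, the receptor for CD47, was higher at a log2 fold change of 0.39 ± 0.12 (adjusted p = 0.017). CD25 (0.51) and CD117 (0.48) were called higher too, at medians of 8.19 and 11.9 in macrophages against 5.49 and 8.05 in monocytes. The call of SIRPa was lost without hashtag 5, 6 or 7 (adjusted p = 0.062 to 0.070), that of CD117 without hashtag 3, 5, 6 or 7 (0.070 to 0.12), and that of CD25 without any but hashtag 8 (0.071 to 0.16).

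Ly6C, the surface protein that defines inflammatory monocytes, was lower on macrophages. It had 608, 887 and 1474 in macrophages, against 1237, 1528 and 2749 in monocytes. The ranges overlapped through hashtag 8, highest in both classes, and macrophages were lower in 6 of 6 pairs (log2 fold change -0.94 ± 0.12, adjusted p = 3.8e-05). CD49d, the integrin alpha 4 chain with which monocytes bind inflamed vessels, had 48.6, 61.8 and 81.3 in macrophages, against 74.7, 103 and 160 in monocytes. Its log2 fold change was -0.73 ± 0.12 (adjusted p = 0.00029), again in 6 of 6 pairs. CD11b, the integrin alpha M chain, had 776, 924 and 1037 in macrophages, against 1025, 1194 and 1546 in monocytes (log2 fold change -0.41, adjusted p = 0.010). CD45 (-0.37), CD24 (-0.35) and CD44 (-0.31) were lower by less. Scaled by the plain tag total in place of TMM, which trims extreme tags, these 3 gave -0.21, -0.19 and -0.15 and lost their calls (adjusted p = 0.078, 0.088 and 0.088). Ly6G (-0.71, adjusted p = 0.0025, lower in 6 of 6 pairs), an antigen of neutrophils, and CD8a (-0.66), of cytotoxic T cells, were also called lower, CD8a not with the plain tag total (adjusted p = 0.15). Both had few counts, Ly6G a median of 8.11 in macrophages against 13.4 in monocytes, and the gene Ly6g had no UMI in either class. The call of CD24 was lost without hashtag 7 (adjusted p = 0.067), that of CD44 without hashtag 2, 6, 7 or 8 (0.088 to 0.16), and that of CD8a without hashtag 3, 5, 7 or 8 (0.067 to 0.14).

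**Figure D1:**
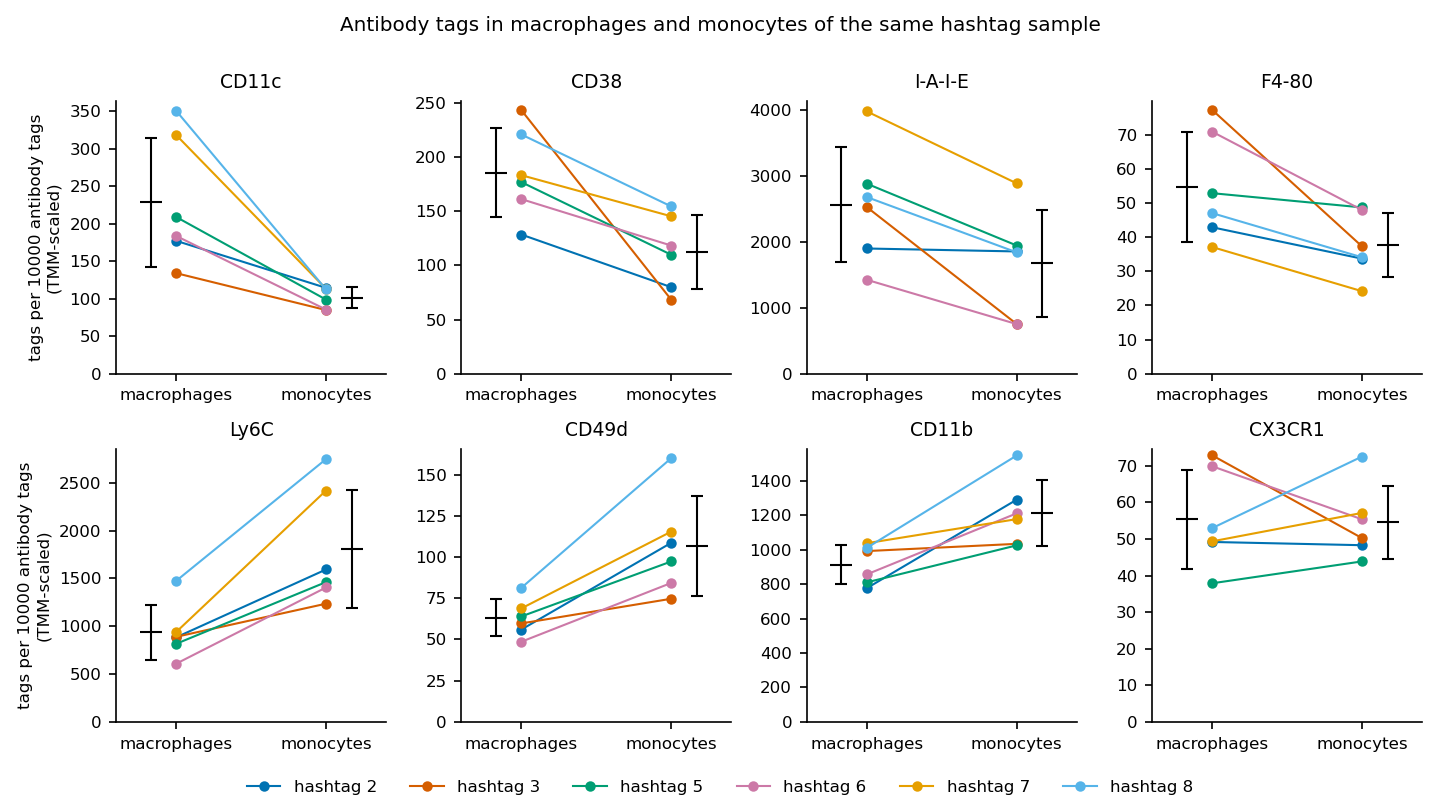
Antibody counts per 10000 (TMM-scaled, y axes starting at 0) of 8 tags in macrophages and monocytes, 1 line per hashtag sample and black bars for mean ± SD (n = 6). All lines fall to the right for CD11c, CD38, I-A-I-E and F4-80 and rise for Ly6C, CD49d and CD11b, while those of CX3CR1 cross.

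The plot of tags by sample adds CX3CR1, the fractalkine receptor, whose tag had medians of 51.2 in macrophages and 52.8 in monocytes (log2 fold change 0.00 ± 0.14). Its gene Cx3cr1 was higher in macrophages, with 99.2, 147 and 163 CPM against 66.7, 78.9 and 99.2 in monocytes (log2 fold change 0.75 ± 0.14, adjusted p = 0.00093). Set side by side, 22 tags had a tested antigen gene. In 9 of them tag and gene were both called and in the same direction: CD11c, I-A-I-E, F4-80, SIRPa, Ly6C, CD49d, CD11b, CD45 and CD44, of which CD45 and CD44 were called with TMM scaling and not with the plain tag total, and the gene Sirpa lost its call without hashtag 2 or 3 (adjusted p = 0.073 and 0.071). With TMM scaling, none were called in opposite directions. For 7, among them CCR2, CX3CR1, CD64, CD86 and PD-L1, the gene was called and the tag was not, and for CD38, CD25 and CD24 the reverse held. With the plain tag total, however, the tags of CD64 (0.50) and PD-L1 (0.37) were called higher (both adjusted p = 0.015). Their genes Fcgr1 (-0.40) and Cd274 (-0.42) were called lower. Ccr2, the receptor with which monocytes leave the marrow, had a gene log2 fold change of -0.95 ± 0.14, while its tag had 0.00 ± 0.17, at medians of 6.88 in macrophages and 6.399 in monocytes. These CCR2 counts were low, near those of the tag for the microglial TMEM119, at medians of 5.97 and 5.73. The tag may therefore be too weak to show a difference. Cd38 RNA gave -0.01 beside the tag's 0.74. Transcripts and tags come from the same cells, so this is a comparison of readouts and not a second set of samples.

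**Figure D2:**
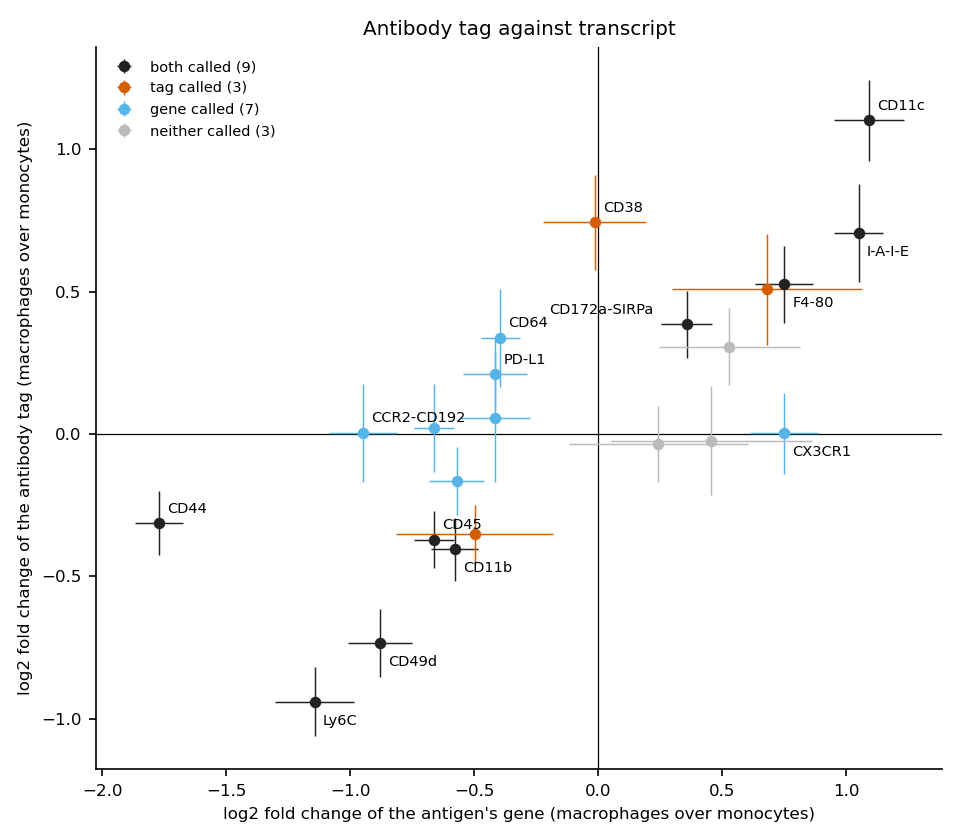
log2 fold change (macrophages over monocytes) of each of 22 antibody tags against that of its antigen's gene, bars showing ± SE (n = 6 pairs), coloured by which readout passed an adjusted p under 0.05. With the TMM scaling plotted, called pairs of tag and gene lie at the upper right and the lower left, with CD38 higher by tag alone and CCR2 lower by gene alone.

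Transcripts were tested over 7825 genes, after leaving out the 16 gate genes. Of these, 2051 (26.2%) were called, 911 (11.6%) higher and 1140 (14.6%) lower in macrophages, and the classes did not overlap for 853 (10.9%). The median log2 fold change of all tested genes was 0.04. Genes that go with the gate genes in the same cells, such as classical monocyte genes, are not independent of the gate. Summed C1q and interferon genes also moved with the number of gate genes detected, as given below. Calls in the lists are therefore not tests independent of the gate. Lists overlap, so 1 gene can count in several.

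Among genes of macrophage function, complement split. Of 12 tested complement genes (18 listed) 4 were higher and 4 lower, with a median log2 fold change of 0.09. The chains of C1q, which opens the classical pathway and tags debris for uptake, were higher together. C1qa had 1986, 3313 and 3865 CPM in macrophages, against 513, 742 and 889 CPM in monocytes. The classes were far apart, at a log2 fold change of 2.16 ± 0.16 (adjusted p = 2.7e-07). C1qb was higher by 1.83 ± 0.15 and C1qc by 1.98 ± 0.15. C3ar1, the receptor for the C3a fragment, was higher too (0.82 ± 0.08). C3, the central complement protein, was lower at -0.86, as were Itgam (-0.58) and C5ar1 (-0.31), the receptor for C5a, whose call was lost without hashtag 5 or 6 (adjusted p = 0.078 and 0.089).

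MHC class II genes were higher or showed no call: 6 of 11 tested (13 listed) were higher and 0 lower, with a median of 0.50. H2-Ab1 had 2078, 3252 and 7478 CPM in macrophages, against 1223, 1777 and 2685 CPM in monocytes. It was higher in 6 of 6 pairs (1.05 ± 0.10, adjusted p = 2.5e-06), although the lowest macrophage sample lay within the range of monocytes. H2-Eb1 (1.14), H2-Aa (1.02), Cd74, the invariant chain (0.72), and Ciita, the master activator of the class (0.61), were also higher. Of 20 MHC class I genes, all tested, 3 were higher and 5 lower, at a median of -0.03. The presenting chains H2-Q7 (0.52) and H2-K1 (0.38) were among the higher, and Psmb10 (-0.36), of the immunoproteasome, and Psme2 (-0.33), of the proteasome activator, among the lower.

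The lysosome list had 18 of 28 tested genes higher (30 listed), 3 lower, and a median of 0.37. Ctsb, a cathepsin protease, had medians of 2920 CPM in macrophages and 2271 in monocytes (0.49, adjusted p = 0.0002), and Ctss, which trims the invariant chain, had 4633 and 3309 CPM (0.43). Lgmn, the legumain protease, was higher without overlap, at 1259, 1583 and 2022 CPM against 581, 938 and 1037 CPM in monocytes (0.85 ± 0.07). Psap (-0.04) and Npc2 (-0.15) gave no call. Tfec was lower at -2.01 ± 0.32 without overlap, with 21 UMIs in macrophages against 265 in monocytes. Ctsk, a collagen-cleaving cathepsin, was called at 1.79 ± 0.57, but 1 sample decided its value: hashtag 5 had 693 CPM in macrophages, and without it the log2 fold change was 0.40 with adjusted p = 0.36. The call was also lost without hashtag 2 (1.94, adjusted p = 0.057).

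Lipid handling was mixed, with 8 of 24 tested genes higher (26 listed), 5 lower and a median of 0.03. Pltp, which transfers phospholipids between lipoproteins, was higher at 1.96 ± 0.19, and Hpgds, the prostaglandin D synthase of blood cells, at 1.96 ± 0.27. Nr1h3, the liver X receptor that senses oxysterols, was higher at 0.87 together with the cholesterol exporter Abcg1 (0.56). Apoc1 was lower at -2.95 ± 0.43, with 11 UMIs in macrophages against 256 in monocytes. Insig1, which holds back sterol synthesis, was lower at -0.79. Plin2, on lipid droplets, gave -0.01 with no call. Of 17 tested scavenger and uptake receptors (24 listed), 6 were higher and 6 lower. Trem2, a lipid receptor of phagocytes, had 259, 413 and 489 CPM in macrophages, against 94.5, 156 and 204 CPM in monocytes, a log2 fold change of 1.38 ± 0.13 without overlap (adjusted p = 3.0e-06). Mrc1, the mannose receptor (1.37), and the receptors for dying cells Mertk (1.00) and Axl (0.63) were higher. The Fc receptor Fcgr1 (-0.40) and the adaptor Tyrobp (-0.42), with which Trem2 signals, were lower.

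Of 25 macrophage maturation genes, all tested, 12 were higher and 4 lower. Cd72, a lectin-like coreceptor, had 238, 439 and 630 CPM in macrophages, against 77.8, 105 and 167 CPM in monocytes (1.92 ± 0.09, adjusted p = 2.5e-09). Adgre1 (0.75), Aif1, an actin-binding protein of macrophages (0.58), and Cadm1, an adhesion molecule (2.23), were higher. The 4 lower genes were all of the Ms4a family, which also holds the gate gene Ms4a7: Ms4a4a (-0.77), Ms4a4c (-0.58), Ms4a6b (-0.41) and Ms4a6c (-0.27). The call of Ms4a4a was lost without hashtag 5, 6, 7 or 8 (adjusted p = 0.056 to 0.12). Csf1r, the receptor for the macrophage growth factor, gave -0.07 with no call. Iron and haem genes had 5 of 12 tested higher (15 listed) and 0 lower, Hebp1, which binds haem, at 1.14 and the biliverdin reductase Blvrb at 0.44. Of the 5, Ftl1 (0.17) lost its call on leaving out any 1 hashtag (adjusted p = 0.057 to 0.14). Hfe (0.49) lost it without hashtag 5, 6 or 8 (0.053 to 0.063), and Blvra (0.39) without hashtag 2 or 5 (0.068 and 0.054). Hmox1, the haem oxygenase, gave -0.37 with no call.

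**Figure D3:**
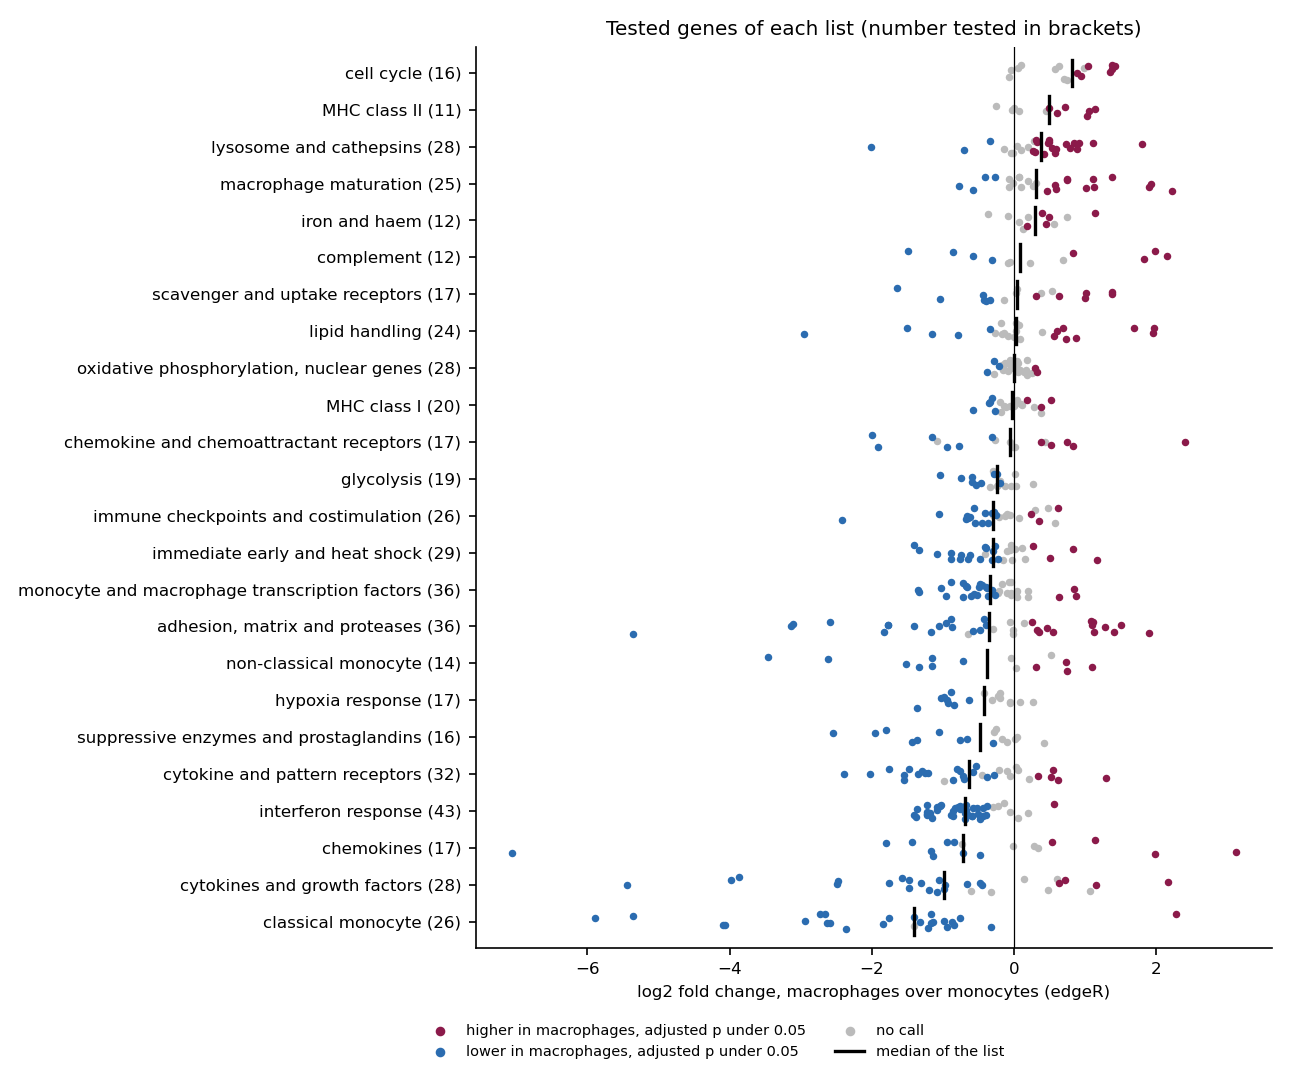
log2 fold change (macrophages over monocytes) of every tested gene of the 24 pathway lists, 1 point per gene, coloured by call, with the list's median as a bar. The lists run from the cell cycle, median 0.82, to classical monocyte genes, median -1.41.

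The plot of the lists shows at its lower end the genes with which inflammatory monocytes are usually named. Of 26 tested classical monocyte genes (30 listed), 24 were lower in macrophages and 1 higher. Vcan, the proteoglycan versican, had 1.93, 6.22 and 18.1 CPM in macrophages, against 263, 307 and 515 CPM in monocytes (-5.36 ± 0.21, adjusted p = 1.7e-09). Prtn3, a protease stored in granules from the promyelocyte stage on, had 1 UMI in all macrophages and 235 in monocytes, a monocyte to macrophage ratio of 79.1 with an exact counting interval of 14.1 to 3139. That interval treats UMIs pooled over the samples as independent and leaves out the spread between hashtag samples. Ly6c2, which encodes the Ly6C antigen, had medians of 800 CPM in macrophages and 2024 CPM in monocytes (-1.14), beside the tag's -0.94. S100a4 (-1.41), S100a6 (-0.85) and Ifitm3, a membrane protein against viruses (-0.76), were lower. The 1 higher gene was Ly6c1 (2.27), which brain endothelium also expresses. With 3 UMIs of Lyz2 required of macrophages too, the list stood at 0 higher and 23 lower of 25 tested. Non-classical monocyte genes did not set macrophages apart in 1 direction: 4 of 14 tested (15 listed) were higher, led by Itgax (1.09), which encodes CD11c, and 7 lower, led by Ear2 (-3.46), a ribonuclease, and Ace (-2.62), the angiotensin-converting enzyme.

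**Figure D4:**
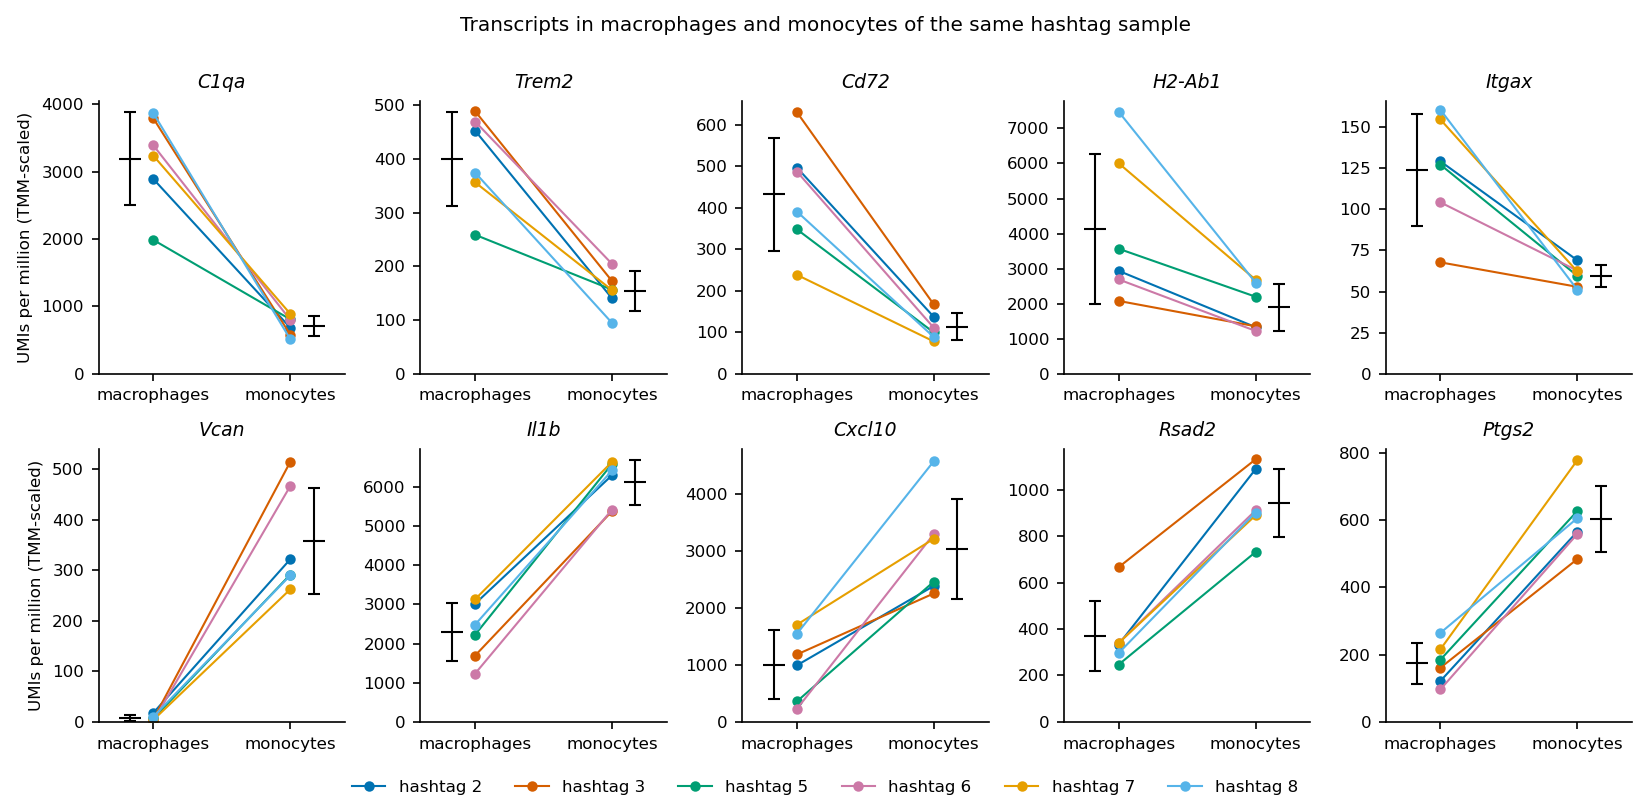
UMIs per 1000000 (TMM-scaled, y axes starting at 0) of 10 genes in macrophages and monocytes, 1 line per hashtag sample and black bars for mean ± SD (n = 6). C1qa, Trem2, Cd72, H2-Ab1 and Itgax lie higher in macrophages in every sample, and Vcan, Il1b, Cxcl10, Rsad2 and Ptgs2 lower.

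The plot of single genes by sample includes the secreted signals Il1b and Cxcl10. By the counts of their lists, secreted signals were more often lower than higher in macrophages. Of 28 tested cytokines and growth factors (36 listed), 18 were lower and 4 higher, with a median of -0.98. Il1b, interleukin-1 beta, had 1234, 2355 and 3131 CPM in macrophages, against 5377, 6356 and 6636 CPM in monocytes. No macrophage sample reached the lowest monocyte sample (-1.47 ± 0.11, adjusted p = 3.6e-07). Its natural antagonist Il1rn was lower as well (-1.20), as were Il6 (-3.87 ± 0.24), Tnf (-0.66) and Osm, oncostatin M (-1.76). Inhba, the activin subunit, had 4 UMIs in macrophages against 571 in monocytes, and Nrg1, neuregulin, 6 against 299. Higher were Pdgfb (2.16) and Pdgfa (0.72), platelet-derived growth factors, and also Igf1 and Il18bp, whose calls were lost on leaving out hashtag 8 (adjusted p = 0.089 and 0.053), and for Igf1 hashtag 2 or 6 as well. Pdgfb is also a product of endothelium. Spp1, osteopontin, was called lower (-1.05 ± 0.32), yet hashtag 8 had 1528 CPM in macrophages against 803 in monocytes, and the call was lost on leaving out any 1 of hashtags 2, 3, 5 and 6 (adjusted p = 0.065 to 0.073).

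Chemokines went both ways. Of 17 tested (23 listed), 9 were lower and 4 higher, with a median of -0.72. Cxcl2 and Cxcl3, which attract neutrophils, were lower: Cxcl2 had medians of 3063 CPM in macrophages and 7513 in monocytes (-1.17 ± 0.12), and Cxcl3 had 2 UMIs in macrophages and 1040 in monocytes, a monocyte to macrophage ratio of 175 with an exact counting interval of 48.4 to 1448. As for Prtn3, the interval leaves out the spread between samples, and monocytes had 27.1 to 208 CPM of Cxcl3. Cxcl10, which attracts T cells and which the study's title names, had 228, 1088 and 1706 CPM in macrophages, against 2254, 2837 and 4574 CPM in monocytes. The classes did not overlap (-1.81 ± 0.29, adjusted p = 0.00033), and the macrophage samples differed among themselves, hashtags 5 and 6 at 360 and 228 CPM and the others between 993 and 1706 CPM. Ccl4 (-0.94), Ccl2 (-0.72) and Ccl3 (-0.48) were lower. Higher were Cxcl16, the ligand of CXCR6 (1.14 ± 0.09, at 632, 804 and 1032 CPM against 332, 366 and 418 CPM in monocytes), Pf4 (1.98), Ccl5 (0.53) and Ccl8. Ccl8 varied most between samples, with 10.2, 246 and 1197 CPM in macrophages, against 0.63, 29.3 and 62.8 CPM in monocytes (3.12 ± 0.55, adjusted p = 0.00080, higher in 5 of 6 pairs). Ccl5 lost its call on leaving out hashtag 3, 6 or 7 (adjusted p = 0.058 to 0.091).

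Among 17 tested chemokine and chemoattractant receptors (22 listed), 5 were higher and 6 lower. Beside Ccr2, the lower ones included Ltb4r1, the leukotriene B4 receptor (-1.995), Ccr1 (-1.15) and the decoy-like receptor Ccrl2 (-0.78). The higher ones included Cx3cr1, C3ar1, P2ry6, a receptor for UDP (0.51), and S1pr1 (2.41), a sphingosine phosphate receptor that endothelium also carries. S1pr1 had 118 UMIs in macrophages and 64 in monocytes. Its log2 ratio was -0.64 in hashtag 8, against 1.87 to 4.53 in the other hashtags. Of 32 cytokine and pattern receptors tested (34 listed), 19 were lower and 5 higher, with a median of -0.64. Cd14, the coreceptor for endotoxin (-1.29), Nlrp3, the inflammasome sensor (-1.35), Clec4d (-2.02), a lectin for fungal and mycobacterial glycans, and the amplifying receptor Trem1 (-2.39) were lower. Tgfbr1, a signalling receptor for TGF-beta, was higher at 71.2, 102 and 129 CPM in macrophages, against 30.5, 43.8 and 50.9 CPM in monocytes (1.29 ± 0.11).

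Genes induced by interferon were lower in macrophages in 36 of 43 tested members (44 listed) and higher in 1, with a median of -0.69. Rsad2, viperin, had 247, 337 and 666 CPM in macrophages, against 732, 906 and 1131 CPM in monocytes (-1.41 ± 0.10, adjusted p = 2.8e-07). Isg15, a ubiquitin-like modifier, had medians of 1069 CPM in macrophages and 2309 in monocytes (-0.85). Cmpk2 (-1.37), Ifi27l2a (-0.52) and Irf7, the factor that amplifies type I interferon (-0.38), were lower. Ifi44 was the 1 higher member (0.56). Bst2 (0.19) and the remaining 5 gave no call. Fewer were called with every barcode thinned to 2000 UMIs, 20 lower and 1 higher of 41 tested. Over all genes that thinning gave 363 lower and 286 higher of 2728 tested.

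The 300 bases from 250 before to 50 after the start of each gene in RefSeq's GRCm38.p6 table were searched on both strands for motifs. The first was the interferon-stimulated response element, spelled GAAA, any 2 bases, GAAA. Of the 34 interferon genes with a promoter in the table, 20 (58.8%) held it. The share was 3.99% over all 27025 genes of the table and 4.54% over tested genes. The list was made of interferon-induced genes, so its share says nothing about the difference between the classes. Of all tested genes called lower in macrophages, 83 of 872 with a promoter (9.52%) held the element. Of those called higher, 17 of 731 (2.33%) did. The lower genes included 19 of the interferon list with the element. A match is a description of letters, not evidence of a bound factor. Among the 9 chemokines lower in macrophages, 7 had a promoter in the table, and 4 of these (Cxcl1, Cxcl2, Cxcl3 and Cxcl10) held the kappaB motif GGGA, any 2 bases, TTCC, which 1.63% of all promoters and 1.92% of those of tested genes hold. Of these 4, Cxcl1 lost its call without hashtag 2, 5 or 8 (adjusted p = 0.090 to 0.13). Over all tested chemokines, 4 of 12 promoters (33.3%) held the kappaB motif. Only 2 of the higher chemokines had a promoter, so the share says nothing about the difference between the classes. Of 22 lysosome promoters, 2 (Ctsa and Ctsd) held the CLEAR E-box TCACGTGA, against 1.12% of all promoters and 2.68% of those of tested genes. The promoters of members named above, and of Ctsd, are shown with the matches in capitals. Rsad2 has 1 response element, read on the opposite strand, Isg15 has 3 that overlap, Cxcl10 has a response element followed by a kappaB motif, Cxcl3 has 2 kappaB matches on opposite strands that overlap, and Ctsd has the CLEAR E-box.
Rsad2 (chr12:26456403-26456702, minus strand): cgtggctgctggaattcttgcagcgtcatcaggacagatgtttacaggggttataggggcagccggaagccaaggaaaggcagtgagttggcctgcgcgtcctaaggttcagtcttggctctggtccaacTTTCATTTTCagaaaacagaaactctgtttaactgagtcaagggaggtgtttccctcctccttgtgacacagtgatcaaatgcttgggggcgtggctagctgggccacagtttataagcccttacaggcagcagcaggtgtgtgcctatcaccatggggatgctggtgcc
Isg15 (chr4:156200769-156201068, minus strand): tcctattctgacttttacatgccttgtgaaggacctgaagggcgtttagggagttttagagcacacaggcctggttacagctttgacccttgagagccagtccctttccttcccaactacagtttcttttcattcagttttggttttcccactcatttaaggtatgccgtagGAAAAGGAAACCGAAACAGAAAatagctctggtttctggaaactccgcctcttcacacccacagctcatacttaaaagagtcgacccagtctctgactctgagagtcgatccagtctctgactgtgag
Cxcl10 (chr5:92348840-92349139, minus strand): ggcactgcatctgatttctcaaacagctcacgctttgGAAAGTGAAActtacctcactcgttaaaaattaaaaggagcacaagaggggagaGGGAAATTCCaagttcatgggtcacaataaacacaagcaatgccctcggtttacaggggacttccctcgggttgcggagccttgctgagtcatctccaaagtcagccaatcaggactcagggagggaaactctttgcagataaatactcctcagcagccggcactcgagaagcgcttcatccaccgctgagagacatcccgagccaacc
Cxcl3 (chr5:90785851-90786150, plus strand): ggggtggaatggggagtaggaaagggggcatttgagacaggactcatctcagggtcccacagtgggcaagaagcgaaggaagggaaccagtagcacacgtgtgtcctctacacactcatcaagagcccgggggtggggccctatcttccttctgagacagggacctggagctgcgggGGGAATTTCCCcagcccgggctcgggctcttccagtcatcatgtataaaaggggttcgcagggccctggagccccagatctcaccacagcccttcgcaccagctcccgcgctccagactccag
Ctsd (chr7:142387778-142388077, minus strand): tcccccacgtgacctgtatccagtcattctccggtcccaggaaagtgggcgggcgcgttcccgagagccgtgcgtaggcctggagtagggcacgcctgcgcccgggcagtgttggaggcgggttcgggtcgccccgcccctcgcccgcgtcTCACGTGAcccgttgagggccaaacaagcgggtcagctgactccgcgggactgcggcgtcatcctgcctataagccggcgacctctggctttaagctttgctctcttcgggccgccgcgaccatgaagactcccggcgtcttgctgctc

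Of 36 tested transcription factors (38 listed), 20 were lower and 3 higher in macrophages. Cebpb, a factor of emergency myelopoiesis and inflammation, had medians of 715 CPM in macrophages and 1825 in monocytes (-1.35 ± 0.07, no overlap). Nr4a1 (-1.33), Hif1a (-1.03) and the NF-kappaB subunits Nfkb1 (-0.96) and Rel (-0.72) were lower. Cebpa (0.84), of myeloid commitment, and Nr1h3 were higher, and so was Batf3 (0.63), unless hashtag 8 was left out (adjusted p = 0.076). Immediate early and heat shock genes, which also move with dissociation of tissue, had 16 of 29 tested lower (31 listed) and 4 higher. Fosl2 (-1.40), Nfkbia (-0.88) and Junb (-0.74) were lower, Fos (-0.04) and Jun (0.01) gave no call, and Rgs1 (1.16) was higher. Whether dissociation had a part in any of these differences was not tested.

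In metabolism, 9 of 19 tested glycolysis genes (20 listed) were lower and 0 higher. The lactate exporter Slc16a3 (-1.05), Pgk1 (-0.74) and Pkm (-0.60) were lower, and the glucose transporter Slc2a1 gave 0.26 with no call. Of 17 tested hypoxia genes (23 listed), 8 were lower and 0 higher, among them Hif1a, Ero1l (-0.89), an oxidase of protein folding, and Bnip3 (-0.94), of mitophagy. With barcodes thinned to 2000 UMIs, 1 of 9 tested hypoxia genes and 3 of 15 glycolysis genes were lower. Over all genes, 363 of 2728 tested were lower with that thinning, so these counts lie near the share of all genes. The 28 nuclear genes of oxidative phosphorylation had 2 higher and 3 lower, a median of 0.00, and no called log2 fold change beyond 0.39 in size.

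Enzymes tied to suppression of T cells and to prostaglandins were lower in 9 of 16 tested members (25 listed) and higher in 0. Ptgs2, cyclooxygenase 2, had 96.6, 173 and 265 CPM in macrophages, against 484, 586 and 778 CPM in monocytes (-1.80 ± 0.13, adjusted p = 2.7e-07). Arg2, the mitochondrial arginase (-1.96), Hpgd, which degrades prostaglandins (-2.54), Cybb, the catalytic subunit of the phagocyte oxidase (-0.66), and Alox5ap (-0.76) were lower. Arg1, the cytosolic arginase, was called at -1.37 ± 0.40, but ranged from 2.82 to 87.5 CPM in macrophages and from 1.26 to 237 CPM in monocytes, and leaving out hashtag 2, 5, 6 or 7 ended the call (adjusted p = 0.054 to 0.10).

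Of 26 tested checkpoint and costimulation genes (30 listed), 14 were lower and 3 higher. Cd274, which encodes PD-L1, had medians of 136 CPM in macrophages and 153 CPM in monocytes (-0.42 ± 0.13, adjusted p = 0.028), a call lost on leaving out hashtag 2, 5, 6 or 8 (adjusted p = 0.053 to 0.099). The PD-L1 tag gave 0.21 ± 0.12 with no call under TMM scaling. With the plain tag total it gave 0.37 and was called higher (adjusted p = 0.015), so its call depends on the scaling. Vsir, which encodes VISTA, had 138 CPM in macrophages and 136 CPM in monocytes (0.07, no call). Larger differences were those of Adora2b, an adenosine receptor (-2.42), Cd80 (-1.06), Cd86 (-0.57) and Pirb, an inhibitory receptor (-0.67). Clec12a, an inhibitory lectin, was higher (0.62), and Cd47, the ligand of SIRPa, lower (-0.31).

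Adhesion, matrix and protease genes changed in both directions, 13 of 36 tested (38 listed) higher and 17 lower. Beside Vcan, Mmp8, a collagenase (-3.14), Fn1, fibronectin (-2.59), Cd44, the hyaluronan receptor (-1.77), Itga4 (-0.88) and the intermediate filament gene Vim (-0.89) were lower. Cd81, a tetraspanin (1.90), Itgax and Lgals1, a galectin (0.35), were higher. Cell cycle genes were higher in 7 of 16 tested members (31 listed) and lower in 0, at a median of 0.82. Tubb5 had 323, 357 and 564 CPM in macrophages, against 161, 216 and 249 CPM in monocytes (0.89 ± 0.11). Cdk1, the mitotic kinase (1.42), Mcm6, of the replicative helicase (1.38), and Stmn1 (1.34) were higher at low levels, and the macrophages of hashtag 6 were highest for all 4 of these genes. Cdk1 had 57.9 CPM there against 10.3 to 20.4 in the macrophages of the other hashtags, and Mcm6 36.7 CPM against 14.1 to 26.3. Without hashtag 6, Stmn1 gave 0.87 (adjusted p = 0.041), Cdk1 1.01 (0.015), Mcm6 1.21 (0.0059) and Tubb5 0.75 (2.6e-05). Mki67 gave 0.71 with no call.

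Outside the lists, the genes with the largest increases were Ch25h (1.93), the cholesterol 25-hydroxylase, Zmynd15 (1.92), Gatm (1.80), of creatine synthesis, Itga9 (1.79), an integrin chain, Eng (1.65), Abcb1a (1.49), AU020206 (1.48), Cpd (1.47), Slamf9 (1.45) and Ckb (1.44), a creatine kinase. Slamf9 had 159, 224 and 284 CPM in macrophages, against 57.1, 82.4 and 94.9 CPM in monocytes. The largest decreases reported here were those of Dmkn (-4.58), Lyz1 (-2.96), Tarm1 (-2.83), Mcemp1 (-2.72), Plcb1 (-2.52), Arhgap26 (-2.42), Gm9733 (-2.36), Smox (-2.31), the spermine oxidase, and Gadd45a (-2.10), of the DNA damage response. Mcemp1 had 13.5, 29.9 and 34.6 CPM in macrophages, against 154, 192 and 206 CPM in monocytes. Lyz1 is nearly identical to the gate gene Lyz2, so its value is uncertain and not independent of the gate.

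Transcripts of other cell types were summed per list. The 10 endothelial markers, all detected in both classes, summed to 133, 928 and 1427 CPM in macrophages, against 176, 263 and 406 CPM in monocytes, and 5 of 7 tested were higher in macrophages. Barcodes with at least 2 of 8 endothelial genes made up 18.2% of macrophages and 16.2% of monocytes. The macrophage gate has no minimum for Lyz2, and 30 of 324 macrophages (9.26%) had under 3 UMIs of it, 11 of them with at least 2 endothelial genes. With that minimum set for both classes, an alternative chosen after seeing the data, 0 of 6 tested endothelial genes were higher, and Eng (0.86, adjusted p = 0.077) and Abcb1a (0.37, adjusted p = 0.29), both of which endothelium expresses, lost their calls. The counts over all genes were then 780 higher and 1097 lower. Markers of border macrophages summed to 405, 594 and 1081 CPM in macrophages, against 348, 467 and 603 CPM in monocytes, with 5 of 8 tested higher and Cd209f at 0 in both. Microglial genes outside the gate summed to 2776, 3853 and 4299 CPM in macrophages, against 2904, 3187 and 3845 CPM in monocytes, with 4 of 7 higher and 1 lower. Of the microglial genes that the gate used, given with no test, Tmem119 had medians of 21.5 CPM in macrophages and 7.89 CPM in monocytes, and Fcrls 18.6 and 3.51 CPM. P2ry12 had 5.37 and 7.56 CPM, Gpr34 1.84 and 1.52 CPM, and Sall1 medians of 0 in both. Tmem119 was higher in macrophages in 6 of 6 pairs, Fcrls in 4, Gpr34 in 3 and P2ry12 in 2. The part of such cells in the differences of C1q, Trem2 and Cx3cr1 was not tested. The neutrophil list summed to 59.0, 91.0 and 238 CPM in macrophages, against 176, 205 and 263 CPM in monocytes, with all 3 tested genes lower and Ly6g at 0 in both. T cell markers summed to medians of 182 CPM in macrophages and 185 CPM in monocytes, with no call among 9, and of 10 carcinoma and epithelial markers 3 were tested with no call. Single calls arose in 3 other lists, 1 higher gene each for B and plasma cells and for erythrocytes and platelets, and 1 lower for astrocytes, oligodendrocytes and neurons, while conventional dendritic cells had 3 of 7 higher. No gene was called for mature dendritic cells (8 tested), plasmacytoid dendritic cells (3), NK cells (3) or choroid plexus (1), and none was tested for pericytes and fibroblasts. The parts of these cells and of free RNA in the differences above were not tested. The transgene features of the matrix (RFP, Cas9, Cre and 3 more) had 0 UMIs in both classes.

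The range between the classes was described by sorting all barcodes with Ms4a7, Apoe and Lyz2 at their minimums by how many of the 6 monocyte genes were detected. This ordering uses the gate, so it is a description with no test. Values at these steps were scaled to the plain totals of UMIs or tags, without TMM, unlike the class values above. The summed C1q genes averaged 11221 ± 2238 CPM at 0 or 1 genes (SD, 5 samples), 7244 ± 2693 at 2 genes, 5323 ± 1500 at 3, 4345 ± 1383 at 4 and 2915 ± 441 at 5 or 6 (6 samples each). The CD11c tag averaged 257, 215, 175, 152 and 105 per 10000 over the same steps, and Ly6C 869, 931, 1090, 1195 and 1359. The summed interferon list was 9797 CPM at 0 or 1 genes, between 14358 and 15932 CPM at 2 to 4, and 18445 CPM at 5 or 6. C1q, CD11c and Ly6C thus shifted step by step, and the barcodes with 3 genes, which neither class held, lay between. Other measures had no single order over the steps. The I-A-I-E tag averaged 2143, 2677, 2238, 2251 and 1801 per 10000 and the summed lysosome genes 26326, 26503, 25194, 25603 and 22209 CPM, both highest at 2 genes. CD49d averaged 58.5, 68.5, 79.3, 75.8 and 88.8 per 10000. Detection depends on depth, and the median UMIs per cell were 11226 at 0 or 1 genes but 18576 at 5 or 6. With the 6 genes counted on barcodes thinned to 2000 UMIs, C1q was 10359, 6506, 3801 and 4341 CPM at 0 or 1, 2, 3 and 4 genes, CD11c was 214, 196, 129 and 78.7, and Ly6C was 894, 1102, 1233 and 1445, the last step resting on 2 samples.

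**Figure D5:**
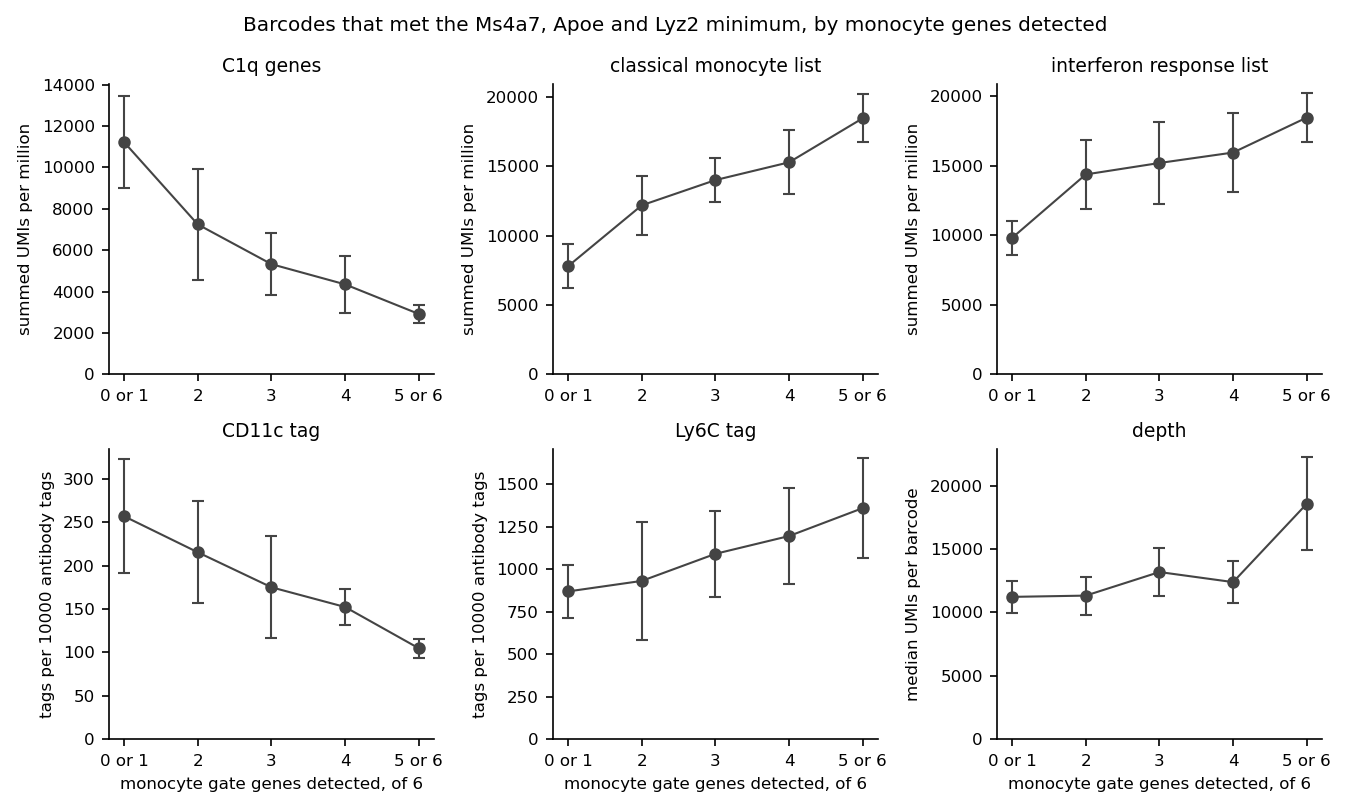
Mean ± SD over hashtag samples of summed C1q, classical monocyte and interferon transcripts (CPM) and of antibody tags (per 10000) in barcodes with Ms4a7, Apoe and Lyz2, by how many of the 6 monocyte genes were detected. Values are scaled to plain totals, without TMM. C1q and CD11c fall and Ly6C and the interferon list rise from few to many of the 6 genes.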

How the data were processed

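The deposited file holds raw UMI counts per barcode for 31062 genes and transgenes, 35 antibody tags and hashtags, per the file headers. Cell Ranger 3.1, Seurat 3.1.1 and build mm10 are named in the submitters' processing notes, and the annotation behind the counts is not stated in them. Hashtag purity of at least 70% was the treatment of doublets, and no doublet caller was run. For each class and hashtag sample, counts were summed and tested with edgeR 4.0.16 (R 4.3.3) by the quasi-likelihood test, with TMM, filterByExpr, the hashtag as a block and p-values adjusted by Benjamini-Hochberg over all genes or tags tested (threshold 0.05). The sums do not separate more expressing cells from more UMIs per cell. Fold changes are macrophages over monocytes.

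Both classes of a pair came from the same hashed sample. Deviations from the class means correlated at 0.07 to 0.26 within hashtags, and each sample correlated best with its own hashtag. The fit was tested on simulated data of this comparison with 7835 genes, where it recovered 84% of genes changed by a log2 fold change of 1 and 100% of those changed by 2, with 2.65% false among calls. The simulation gave all genes the same dispersion and changed 100 genes at each size, drawn from well-counted genes and balanced in direction. It held no gate and no other cell types. Its shares need not hold for the real data, where 26.2% of genes were called.

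Members and gene lists were chosen with earlier results of these data known. Genes named are, by rule, the 10 largest called increases and decreases outside the lists (same direction in every pair, at least 30 CPM on average in the higher class), the 4 most abundant and 2 most changed members of each of 24 pathway lists, Cxcl10, Vsir, Cd274, and every tag's antigen gene. Other genes named from the lists were chosen after their values were seen. The 15 lists of other cell types were summed. Alternatives covered DESeq2 1.42.0, other scalings and filters, thinning to 2000 UMIs, other gates, and leaving out each hashtag. Some genes the rule would name are not reported here, and they stay in every fit and count.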

Additional observations from a re-analysis of the deposited data

Results flagged for a closer look

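Per pair of macrophages and monocytes, 183 log2 ratios of named genes and tags were searched for a hashtag sample lying apart from the other 5 by Dixon's ratio above 0.625, and 13 were found, where chance gives about 1 in 20. Among tags, hashtag 3 had the highest ratio for CD38 (1.84, the others 0.33 to 0.69) and for CCR2 (0.78). Hashtag 5 was highest for CD4 (0.60), hashtag 7 lowest for Ly6G (-1.19) and hashtag 8 lowest for TMEM119 (-0.65). Among genes of the interferon list, the ratio of Cmpk2 was lowest in hashtag 2 (-4.67, the others -1.58 to -0.56) and that of Rsad2 highest in hashtag 3 (-0.76). Ifitm3 was lowest in hashtag 2 (-1.01) and C5ar1 in hashtag 6 (-0.90). Hashtag 6 was highest for Tubb5 (1.58), hashtag 5 for Fosl2 (-0.92), and hashtag 8 for Pkm (-0.42) and Cox8a (0.16). Cox8a, CD4, CCR2 and TMEM119 had no call, and the other 9 kept the direction of their fitted value in all 6 pairs.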

How the results depend on the processing

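Over single genes and tags, 3316 alternative values kept their direction and their side of the threshold, 274 lost the call, 84 gained one and 11 turned direction. The number of genes higher in macrophages was 911, against 451 with DESeq2 size factors and Wald test, 286 with barcodes thinned to 2000 UMIs before summing and 1449 with the gate set on thinned barcodes. The number lower was 1140, and 363 with thinned sums, where 2728 genes were tested. Leaving out each hashtag gave 613 to 768 genes higher and 914 to 1109 lower. Without the replicate block, 833 genes were higher and 1001 lower, and for tags 1 higher and 3 lower. With monocytes that met the Ms4a7 and Apoe minimum left out, chosen after seeing the data, 1143 genes were higher and 1206 lower. No called gene turned to a call in the opposite direction, with 1 exception under the gate on thinned barcodes.

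Of the tags, 7 were higher and 8 lower, against 11 and 4 with the plain tag total. Lower tags were 5 per RNA UMI, 3 with hashtag purity of at least 90%, 3 with the thinned gate, 4 with at most 20000 UMIs, and 3 without barcodes holding at least 2 genes of other types. Leaving out each hashtag gave 4 to 7 tags higher, with 4 without hashtag 5, 6 or 7, and 5 to 7 lower. Averaged per cell and tested by the exact sign-flip test, 0 of 32 tags passed adjustment in either direction, 10 had an unadjusted p = 0.03125, the smallest that 6 pairs allow, and the smallest adjusted p was 0.100. With so few pairs this count says nothing about stability. CD11c, Ly6C and CD49d were called on leaving out any hashtag and in 12 of 13 other settings.

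Directions turned for Plin2 (0.26 without barcodes of other types, 0.35 against monocytes lacking the Ms4a7 and Apoe minimum) and, with the thinned gate, Spp1 (0.69), Gapdh (0.026), Arg1 (0.48), Slc2a1 (-0.69) and the CD8a tag (0.045). Slc2a1 was -1.14 without barcodes of other types and -0.67 with the Lyz2 minimum for both classes. With Ms4a7 alone as the macrophage gate, the CD4 tag was 0.68 and the CD8a tag 0.042. The causes were not tested. Depth limits genes with few UMIs in macrophages, which had 313 cells.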

Other observations

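Hashtag samples differed in level within a class, in some markers in 1 class of the pair and not in the other. The I-A-I-E tag was 3987 per 10000 in the macrophages of hashtag 7 and 1428 in those of hashtag 6, against 2893 and 755 in the monocytes of the same hashtags. Summed choroid plexus markers reached 2323 CPM in 1 monocyte sample, against a median of 36.7 CPM over monocyte samples, and lay at 28.0 to 49.1 CPM in macrophages, with 49.1 CPM in those of the same hashtag. Summed pericyte and fibroblast markers reached 285 CPM in 1 macrophage sample, against a median of 12.3 CPM over macrophage samples and 5.04 to 39.2 CPM in monocytes. Endothelial sums in macrophages were 308, 1245, 814, 1427, 1042 and 133 CPM in hashtags 2, 3, 5, 6, 7 and 8, against 192, 406, 247, 176, 405 and 280 CPM in monocytes of the same hashtags, so hashtag 8 alone had the lower sum in macrophages.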
